A study of Mus musculus with 8 samples.

Results

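Csad, Cdo1, Slc6a6 and Baat encode proteins that make, take up and use taurine, and all 4 were measured in mouse liver by 1 array probe each. They were chosen by symbol from the probe annotation, and they are 4 of the 8945 genes that passed a filter on dim probes. Csad was picked because its level in these arrays differed by both diet and generation, so its differences by those factors are given as a description with no test. The samples were livers of female C57/BL6 mice, taken after a 6 h fast and hybridised to 8 Illumina bead arrays. The groups were a diet with 21% or 5% corn oil by weight, the F3 or F1 generation, and an age of 456 days (D456) or 90 days (D90), with 1 array for every combination. Pooling of animals is not stated in the labels, nor is the generation that ate the diet. No combination had a replicate, so each p-value reflects differences among single arrays, which may be partly technical.

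Taurine is a sulfur-containing amino acid derivative that liver makes from cysteine. Cysteine dioxygenase, encoded by Cdo1, oxidises cysteine to cysteine sulfinate. Cysteine sulfinate decarboxylase, encoded by Csad, turns that into hypotaurine, which is then oxidised to taurine. Slc6a6 encodes the sodium-dependent taurine transporter of the cell membrane. Baat encodes the enzyme that joins activated bile acids to taurine, and in mice most bile acids are secreted as taurine conjugates. In mouse liver, bile acids acting through the receptor FXR (Nr1h4) are known to lower Csad and the bile acid synthesis gene Cyp7a1.

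The gene on which the results turn is Csad, so the sequence around its annotated starts is shown. RefSeq (GRCm38.p6) gives 2 start windows for Csad, both on the minus strand, each with 250 bases before the start and 50 after it. They lie at chr15:102205003-102205302 and chr15:102188994-102189293. Each is printed 5′ to 3′ of the gene, and capitals mark the only match to a searched motif.
Csad start 1: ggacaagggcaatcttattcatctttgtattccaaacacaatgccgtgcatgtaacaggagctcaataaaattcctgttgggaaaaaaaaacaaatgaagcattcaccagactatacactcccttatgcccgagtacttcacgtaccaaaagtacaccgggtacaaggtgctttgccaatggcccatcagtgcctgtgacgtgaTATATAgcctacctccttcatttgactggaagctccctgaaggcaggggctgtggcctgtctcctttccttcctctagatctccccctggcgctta
Csad start 2: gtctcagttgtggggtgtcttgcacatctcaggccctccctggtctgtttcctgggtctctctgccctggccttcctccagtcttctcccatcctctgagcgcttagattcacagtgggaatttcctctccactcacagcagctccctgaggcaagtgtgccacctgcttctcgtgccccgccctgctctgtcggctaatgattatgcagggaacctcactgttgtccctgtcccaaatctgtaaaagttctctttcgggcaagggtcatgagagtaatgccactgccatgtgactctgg
The motifs, searched on both strands, were the inverted repeat bound by FXR (IR-1), the site of the bile acid regulator Nr5a2 (TCAAGGTCA), the nuclear receptor core site (AGGTCA, part of both preceding motifs), the E-box (CACGTG) and a TATA-like run (TATATA). The TATA-like run began at position -46 from start 1, and 5.67% of 32851 promoter windows held it. The other motifs had no match in either Csad window, and 0.00913%, 0.423%, 16.3% and 7.15% of all windows held them, in the order given. The array probe does not tell which start a transcript came from.

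Csad was higher with 21% than with 5% corn oil and higher in F3 than in F1, differences it was picked for and that were not tested. The other 3 genes did not pass for any factor, and 0 of all 8945 genes passed by diet or by generation. Its intensity in the 21% arrays was 1433 in F3 D456, 1543 in F3 D90, 1083 in F1 D456 and 971 in F1 D90. In the 5% arrays it was 995 in F3 D456, 989 in F3 D90, 588 in F1 D456 and 456 in F1 D90. The F3 21% livers were the highest and the F1 5% livers the lowest, while the F1 21% and the F3 5% livers shared a middle range. On the log2 scale that middle range ran from 9.92 to 10.08, against 10.49 and 10.59 above it and 9.20 and 8.83 below it. The residual SD of the additive fit was 0.19. Neighbours in this order lay closer than that within the middle range and between both F3 21% arrays, and farther apart elsewhere, which describes the values that chose Csad and tests nothing. The mean of the F3 21% pair was 2.87-fold that of the F1 5% pair (log2 10.54 against 9.02, 2 arrays each).

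**Figure D1:**
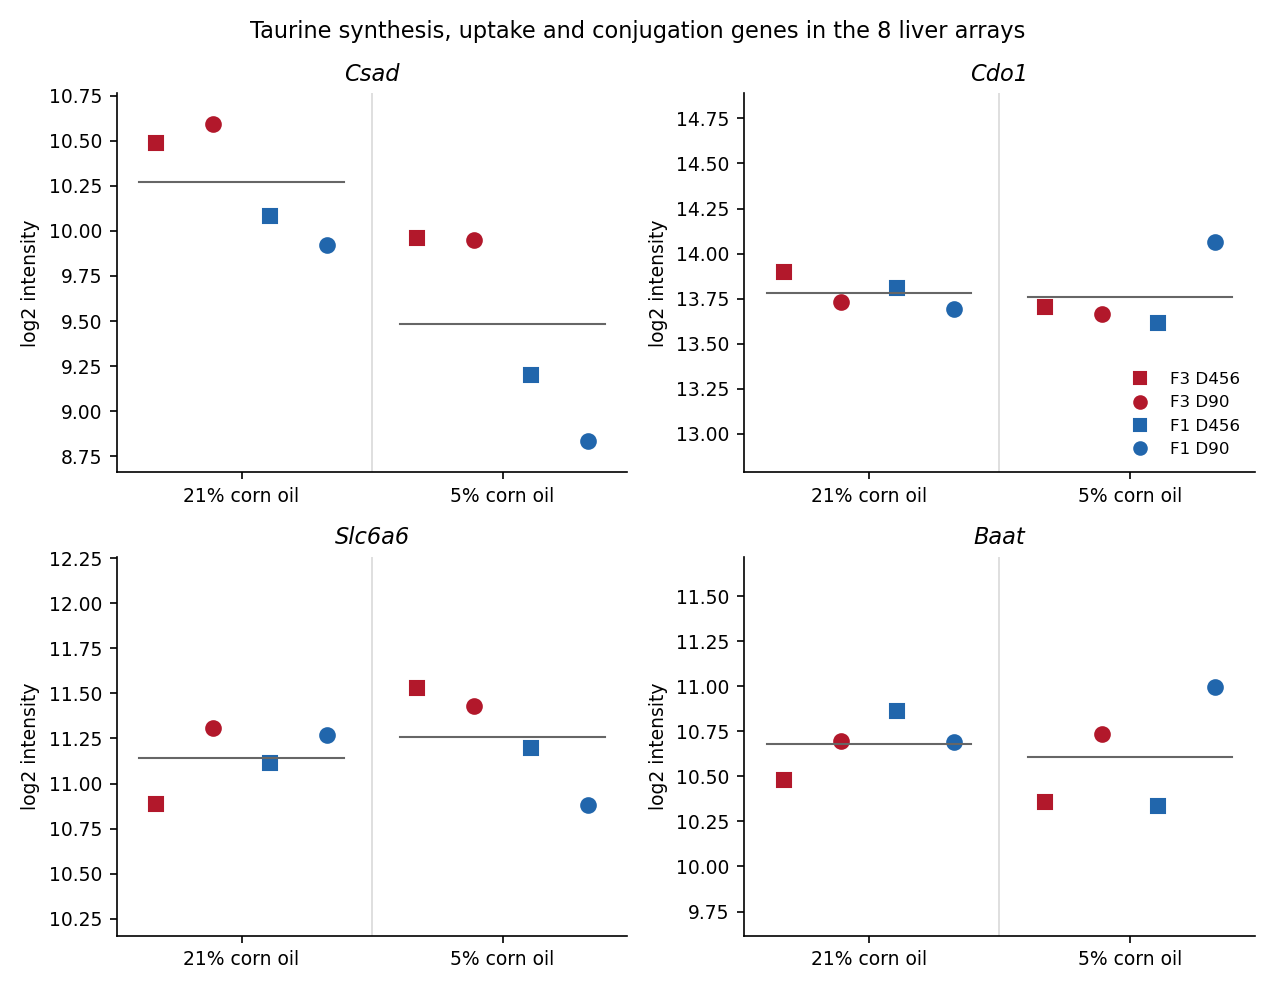
Log2 intensity of Csad, Cdo1, Slc6a6 and Baat in the 8 liver arrays, by corn oil content, with generation as colour, age as symbol and a grey line at the mean of each diet. Every panel has the same height in log2 units. Csad was picked for its differences by diet and generation. Its F3 21% arrays are at the top (10.49 and 10.59) and its F1 5% arrays at the bottom (9.20 and 8.83).

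By diet, Csad averaged 10.27 ± 0.32 with 21% corn oil and 9.49 ± 0.56 with 5% (log2, SD, n = 4 arrays each). The fitted difference was +0.79 ± 0.12 (SE), a 1.72-fold higher level with 21%. The matched pairs, arrays of the same age and generation, gave 1.44-fold in F3 D456, 1.56-fold in F3 D90, 1.84-fold in F1 D456 and 2.13-fold in F1 D90. All 4 pairs were thus higher with 21%, as were 5.35% of all genes tested, and the ranges of both diets still overlapped because F1 21% D90 (9.92) lay below both F3 5% arrays. By generation, Csad averaged 10.25 ± 0.34 in F3 and 9.51 ± 0.59 in F1, and the fitted difference was +0.74 ± 0.12, or 1.67-fold. The pairs of the same diet and age gave 1.32-fold in 21% D456, 1.59-fold in 21% D90, 1.69-fold in 5% D456 and 2.17-fold in 5% D90. All 4 were higher in F3, as were 4.59% of all genes tested, and 0.794% were higher in all 4 pairs of both factors. The choice of Csad rests on these values, so nothing is read from them.

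Csad was not picked for its relation to age. The way diet and generation combine comes from the values that chose Csad, so that interaction is not independent of the choice. By age, Csad averaged 9.93 at D456 and 9.82 at D90, a difference of +0.11 ± 0.12 (95% interval -0.18 to +0.39, adjusted p = 0.681 by limma, the linear model fit over all genes). Without F1 5% D90 the difference by age was -0.0087. The F3 minus F1 difference was +0.54 with 21% corn oil and +0.94 with 5%, and likewise the diet difference was +0.58 in F3 and +0.99 in F1. This difference of differences, -0.40 ± 0.23, did not pass (adjusted p = 0.9998 by limma). For that interaction 0 of 8945 genes passed, and 1.17% had an unadjusted p below 0.05, against 2.91% for age by generation and 11.8% for diet by age. The Csad value was -0.23 without F1 5% D90 and -0.26 without F3 21% D456. Between diet and age (-0.16 ± 0.25, adjusted p = 0.787) and between age and generation (-0.31 ± 0.23, adjusted p = 0.996) Csad did not pass either. Without F1 5% D90 these were +0.09 and -0.11.

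**Figure D2:**
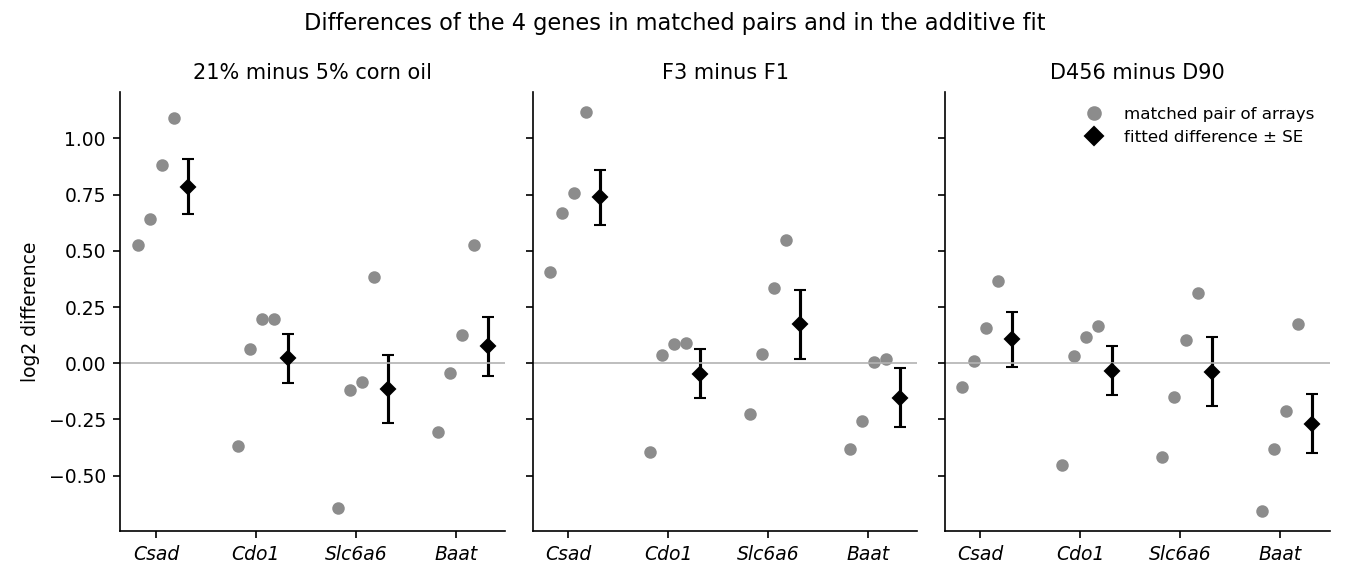
Log2 differences by diet, generation and age for the 4 genes, with grey points for the 4 matched pairs of arrays and a black diamond for the additive fit with its standard error. Csad was picked for its differences by diet and generation, and it lies above 0 in every pair of both (+0.79 and +0.74 in the fit). The other genes, not picked that way, have pairs on both sides of 0.

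Cdo1, whose enzyme makes the substrate of the Csad enzyme, spanned 0.45 log2 units over the arrays, more than 68.9% of all genes, and did not pass for any factor. Its intensity was 15252 in F3 21% D456, 13604 in F3 21% D90, 14375 in F1 21% D456 and 13262 in F1 21% D90, against 13320 in F3 5% D456, 13014 in F3 5% D90, 12526 in F1 5% D456 and 17121 in F1 5% D90. The F1 5% D90 liver, the lowest for Csad, was the highest for Cdo1, and the other 7 arrays lay within 12526 and 15252. The fitted log2 difference was +0.02 ± 0.11 by diet (95% interval -0.23 to +0.27), -0.05 ± 0.11 by generation (-0.30 to +0.20) and -0.03 ± 0.11 by age (-0.28 to +0.22). The adjusted p-values by limma were 0.99996, 0.992 and 0.897, and 0%, 0% and 0.101% of all genes passed. Without F1 5% D90 these differences were +0.15, +0.08 and +0.10. Cdo1 is bright, and whether its probe was near saturation was not tested.

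Slc6a6, the taurine transporter gene, was higher in F3 than in F1 in both pairs with 5% corn oil, a difference that was not tested by itself. With 21% corn oil its intensity was 1896 in F3 D456, 2534 in F3 D90, 2217 in F1 D456 and 2464 in F1 D90. With 5% it was 2959 in F3 D456, 2755 in F3 D90, 2347 in F1 D456 and 1887 in F1 D90. The F3 livers on 5% were the highest of all, and the lowest were F3 21% D456 and F1 5% D90. The F3 minus F1 difference was thus +0.44 with 5% corn oil and -0.09 with 21%. The difference between these, -0.53 ± 0.27, did not pass (adjusted p = 0.9998 by limma), and it was -0.30 without F1 5% D90 and -0.28 without F3 21% D456. Averaged over the other factors, Slc6a6 differed by -0.12 ± 0.15 by diet (95% interval -0.47 to +0.24), by +0.17 ± 0.15 by generation (-0.18 to +0.52) and by -0.04 ± 0.15 by age (-0.39 to +0.31). Its adjusted p-values by limma were 0.99996, 0.988 and 0.919. The generation difference was +0.019 without F1 5% D90.

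Baat, the conjugating enzyme gene, had its lowest levels in the aged livers of the 5% diet. Its intensity was 1429 in F3 21% D456, 1657 in F3 21% D90, 1863 in F1 21% D456 and 1650 in F1 21% D90, against 1311 in F3 5% D456, 1706 in F3 5% D90, 1294 in F1 5% D456 and 2040 in F1 5% D90. Between ages it averaged 10.51 ± 0.24 at D456 and 10.78 ± 0.15 at D90 (log2, SD, n = 4 arrays each). The difference of -0.27 ± 0.13 (95% interval -0.57 to +0.03) did not pass (adjusted p = 0.441 by limma), and 3 of the 4 pairs were lower at D456. The exception was F1 with 21% corn oil, where Baat stood at 10.86 at D456 and 10.69 at D90. The diet difference was +0.08 ± 0.13 (-0.23 to +0.38, adjusted p = 0.99996) and the generation difference -0.15 ± 0.13 (-0.46 to +0.15, adjusted p = 0.988). The arrays lowest for Baat, F1 5% D456 and F3 5% D456, had the highest medians of pancreas markers, described below (log2 9.28 and 10.07). With the pancreas level as a covariate the age difference of Baat was -0.08. The part of pancreas transcripts in that difference was not tested. For Cdo1, Slc6a6 and Baat, none of the 7 gaps between neighbouring arrays exceeded the residual SD of 0.19, 0.27 and 0.21.

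Some arrays held pancreas or muscle transcripts, and these levels stand beside Csad here. Their part in its differences was not tested beyond the values given. The median log2 intensity of 7 hepatocyte markers was 12.50 in F3 21% D456, 12.98 in F3 21% D90, 12.96 in F1 21% D456 and 13.18 in F1 21% D90, against 12.88 in F3 5% D456, 13.35 in F3 5% D90, 12.86 in F1 5% D456 and 13.11 in F1 5% D90. Of the 7, 3 were lower with 21% in all 4 pairs, as were 4.72% of all genes. All 7 had a negative difference by diet (median -0.05, against +0.00 over all genes), and 0 passed. Among them Apoa1 and Ttr reached 24387 to 27667 and 23694 to 24797 on all 8 arrays, while the Alb probe was dim, at 272 to 527. All 9 macrophage markers tested had a positive difference by diet (median +0.10, against +0.00 over all genes), and 0 passed. Of these markers, 1 was higher with 21% in all 4 pairs, as were 5.35% of all genes. The median level of the macrophage markers was 9.52 to 9.77 with 21% and 8.85 to 9.69 with 5%. The median log2 intensity of 24 pancreas markers was 6.88 to 6.91 in the 4 arrays with 21% corn oil, against 10.07 in F3 5% D456, 8.43 in F3 5% D90, 9.28 in F1 5% D456 and 6.87 in F1 5% D90. Their summed intensity was 3590 to 4069 with 21% and 3344 to 29526 with 5%. The 12 skeletal muscle markers had a median of 6.88 to 7.04 with 21%, against 7.63 in F3 5% D456, 6.92 in F3 5% D90, 6.95 in F1 5% D456 and 7.80 in F1 5% D90. The 5% arrays above the range of the 21% arrays were F3 D456, F3 D90 and F1 D456 for pancreas, and F3 D456 and F1 D90 for muscle. Csad differed between F3 and F1 by 0.40 at D456 and 0.67 at D90 among the 21% arrays, values that took part in its choice. With the pancreas level as a covariate the Csad difference was +1.07 by diet and +0.64 by generation. The pancreas level was raised only in arrays with 5% corn oil, so this fit separates it poorly from diet. The array least like the others was F1 5% D90, whose correlation with them averaged 0.977, against 0.986 to 0.990 for the remaining 7. Without it Csad differed by +0.67 by diet and +0.62 by generation. The Y-linked gene Eif2s3y reached 166 in F1 21% D90 and 109 to 113 elsewhere, although the mice were labelled female, and the median of 13 male-biased liver genes was 11.33 in that array against 8.91 to 10.30 in the others. Without F1 21% D90 the Csad differences were +0.75 by diet and +0.77 by generation. In whole liver, fewer cells of a type and less RNA per cell cannot be told apart.

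**Figure D3:**
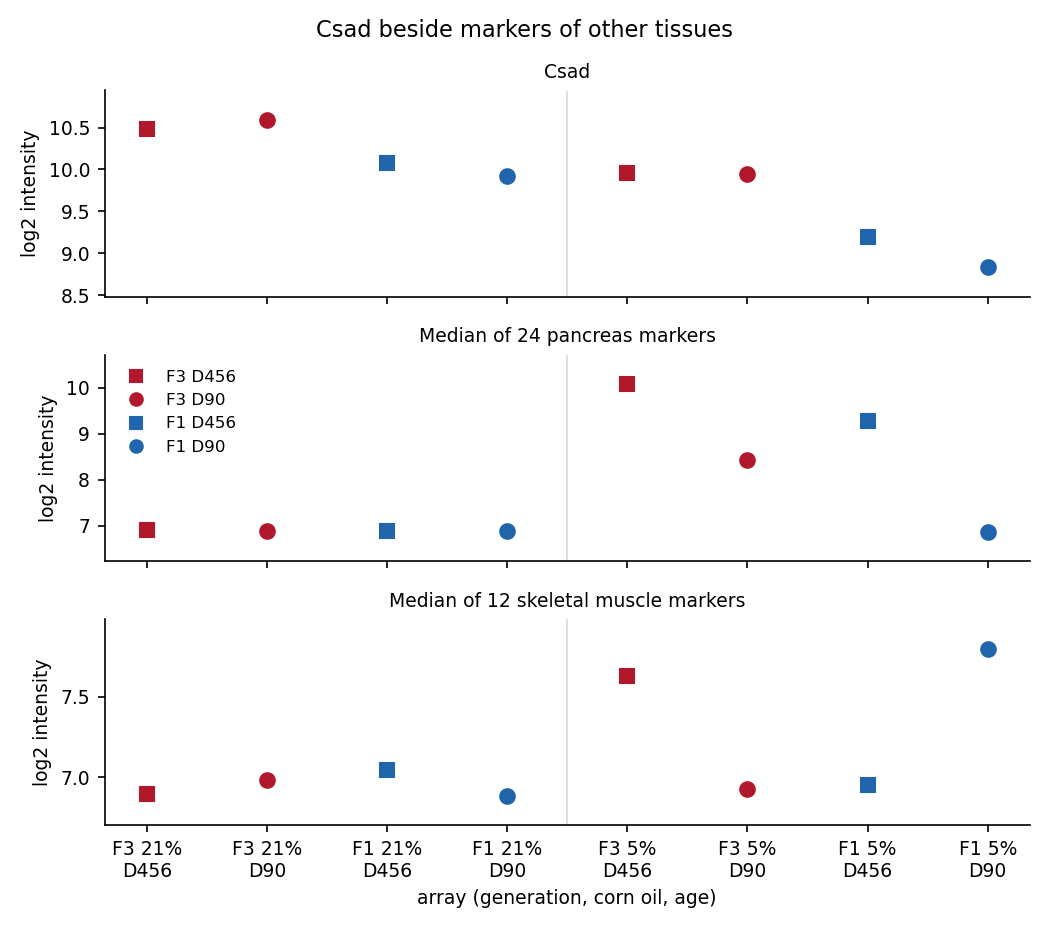
Log2 intensity of Csad and the median log2 intensity of 24 pancreas markers and 12 skeletal muscle markers in each of the 8 arrays. The pancreas median is 6.88 to 6.91 in the 4 arrays with 21% corn oil and 8.43 to 10.07 in 3 of the 4 arrays with 5%, and the muscle median is highest in F1 5% D90 (7.80), where Csad is lowest.

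The genes around the taurine route were taken from 8 lists with 93 symbols, of which 83 had a probe and 71 were tested. None passed by limma for diet, generation or age. At an unadjusted p below 0.05 there were 4 for diet (5.63%, against 3.22% of all genes), 0 for generation (against 2.14%) and 11 for age (15.5%, against 12.2%). Without F1 5% D90 the diet count was 11 (15.5%, against 9.13% of all genes), and without F1 21% D90 the age count was 22 (31.0%, against 23.4%) and the generation count 12 (16.9%, against 10.2%), with 0 passing in either case. Without F1 5% D456 the generation count was 9 (12.7%, against 8.21%). These leave-outs had the largest counts. The smallest were 1 for diet (1.41%, against 2.30%) without F3 5% D90 and 5 for age (7.04%, against 5.97%) without F1 5% D456. For generation the count was 0 without F1 5% D90 and in most other leave-outs. On all 8 arrays the lowest adjusted p by limma was 0.99996 for diet, 0.988 for generation and 0.220 for age. With 21% corn oil 5 genes were higher and 2 lower in all 4 pairs (over all genes 5.35% and 4.72%, together 10.1%). In F3 it was 1 higher and 7 lower (4.59% and 5.52%, together 10.1%), and at D456 2 higher and 13 lower (7.61% and 11.8%, together 19.4%). Levels did not overlap between diets for 3 genes (1.84% of all genes), between generations for 0 (1.14%) and between ages for 8 (8.11%). As shares of the 71 genes these were 7.04% and 2.82% by diet, 1.41% and 9.86% by generation and 2.82% and 18.3% by age for the pairs, and 4.23%, 0% and 11.3% without overlap. Single values lean on single arrays. Leaving out F1 5% D90 turned the sign of 20 of the 71 diet differences and 14 of the 71 generation differences. It moved 33 and 43 others by over 1.5 times. Leaving out F1 21% D90 turned 16 and 14 signs and moved 35 and 27 others that far. For F1 5% D456 these were 10 and 10 signs, and 40 and 32 others. Single genes are given below mostly without F1 5% D90, so they may still lean on another array. The differences that follow are log2 differences with their standard errors, and the named genes of each list are those with the largest differences by diet and by generation.

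The methionine cycle and the step to cysteine feed Cdo1, and of 10 genes 6 were higher and 4 lower with 21% corn oil (median +0.02, against +0.00 over all genes), and 4 higher and 6 lower in F3 (median -0.01, against -0.01 over all genes). Cth, whose enzyme releases cysteine from cystathionine, differed by +0.18 ± 0.30 by diet and +0.34 ± 0.30 by generation, and Gnmt, which disposes of excess methyl groups, by +0.15 ± 0.28 and +0.25 ± 0.28. Both were lowest in F1 5% D90, at 7.68 against 8.63 to 9.25 elsewhere for Cth and at 12.78 against 13.71 to 14.30 for Gnmt. Without that array all these signs turned, to -0.24 by diet and -0.07 by generation for Cth, and to -0.23 and -0.13 for Gnmt. Cbs, which makes cystathionine, stood within 0.02 ± 0.10 by diet and at -0.0044 ± 0.10 by generation. Bhmt, which remethylates homocysteine, differed by -0.40 ± 0.27 by generation and was lower in F3 in 4 of 4 pairs, as were 5.52% of all genes, and it differed by -0.23 without F1 5% D90. Pemt, a methyl user that makes phosphatidylcholine, differed by -0.13 ± 0.08 by diet.

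Among 9 genes of other cysteine and taurine routes, 6 were higher with 21% corn oil (median +0.05) and 4 were higher in F3 (median -0.03). Fmo1 encodes a flavin monooxygenase that can oxidise hypotaurine to taurine, the step after Csad. Its intensity was 4783, 5129, 4135 and 3865 in F3 D456, F3 D90, F1 D456 and F1 D90 with 21%, against 4110, 4222, 4134 and 3980 in the same order with 5%. The pair of F3 21% arrays was thus the highest for Fmo1 as for Csad. The lowest for Fmo1 was F1 21% D90, where Csad was in its middle range. How many genes have the F3 21% pair on top was not counted. The differences of Fmo1 were +0.11 ± 0.09 by diet and +0.17 ± 0.09 by generation. Suox, the sulfite oxidase gene, differed by +0.20 ± 0.12 and +0.21 ± 0.12, Got1, an aminotransferase gene, by -0.20 ± 0.14 by diet, and the thiosulfate sulfurtransferase gene Tst by -0.07 ± 0.10 by generation. Suox differed by +0.09 and +0.10, Got1 by -0.35 and Tst by -0.13 once F1 5% D90 was left out.

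Glutathione synthesis draws on the same cysteine. Of 7 such genes 5 were higher with 21% corn oil (median +0.06) and 3 in F3 (median -0.05). Oplah, whose enzyme opens the ring of oxoproline, had log2 levels of 9.16 to 9.40 with 21% and 8.95 to 9.12 with 5%, without overlap, as had 1.84% of all genes. Its difference was +0.27 ± 0.10. Chac1, which breaks glutathione down, differed by +0.19 ± 0.19 by diet, and the synthase gene Gss by +0.17 ± 0.10 by diet and +0.14 ± 0.10 by generation. Gclc, the catalytic subunit of the limiting enzyme, differed by -0.03 ± 0.06 by diet and -0.12 ± 0.06 by generation. The aminopeptidase gene Anpep (-0.20 ± 0.12) and Ggct (+0.13 ± 0.15) had the other large generation differences of the list, which were -0.10 and -0.02 without F1 5% D90.

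Of 6 carriers tested, 2 were higher with 21% corn oil and 2 were higher in F3 (medians -0.03 and -0.07). Slc6a13, a GABA transporter of hepatocytes that also carries taurine, differed by -0.0097 ± 0.08 by diet and +0.03 ± 0.08 by generation. Slc6a12, the betaine transporter gene, differed by -0.19 ± 0.10 and -0.20 ± 0.10. Slc16a6 differed by -0.12 ± 0.07 and -0.13 ± 0.07, and Slc38a2, a neutral amino acid transporter gene, by +0.08 ± 0.16 and -0.23 ± 0.16. Leaving out F1 5% D90 gave -0.06 and -0.06 for Slc16a6, and +0.24 and -0.07 for Slc38a2. All 6 had a negative difference by age (median -0.18, against -0.02 over all genes), but without F1 5% D90 Slc38a2 stood at +0.06 and Slc16a6 at +0.0015. On all 8 arrays Slc6a12, Slc6a13 and Slc1a4 were lower at D456 in 4 of 4 pairs, as were 11.8% of all genes.

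Before Baat can act, bile acids are activated to CoA esters. In the list of activation and conjugation 5 of 6 genes were higher with 21% corn oil (median +0.09) and 3 of 6 in F3 (median -0.02). Slc27a5, the bile acyl-CoA synthetase gene, differed by -0.05 ± 0.08 by diet and -0.06 ± 0.08 by generation. Acnat2, a relative of Baat that conjugates fatty acids to amino acids, differed by +0.30 ± 0.15 and +0.22 ± 0.15. Its intensity reached 917 in F3 21% D456 and stood between 363 and 616 on the other arrays. The thioesterase genes Acot8 (+0.12 ± 0.11 by diet) and Acot12 (+0.10 ± 0.15 by diet, -0.23 ± 0.15 by generation) complete the named genes. With F1 5% D90 left out, Acot8 differed by +0.19 by diet, Acot12 by +0.26 and -0.07, and Slc27a5 by +0.02 and +0.0050.

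In bile acid synthesis 8 of 12 genes were higher with 21% corn oil (median +0.05) and 6 of 12 in F3 (median -0.0034). Cyp7b1, an oxysterol hydroxylase of the acidic pathway, had the largest diet difference of all lists, +0.98 ± 0.31 (unadjusted p = 0.0119, adjusted p = 0.99996 by limma). Its log2 level was 10.48, 10.08, 10.35 and 11.74 in F3 D456, F3 D90, F1 D456 and F1 D90 with 21%, against 9.91, 9.57, 9.71 and 9.53 in the same order with 5%. The diets did not overlap, as for 1.84% of all genes, and leaving out the highest array cannot change that. The highest array was F1 21% D90, the one with the highest male-biased genes. The part of that in the Cyp7b1 difference was not tested, and without that array the diet difference was +0.56 ± 0.09 (adjusted p = 0.141 by limma). By generation Cyp7b1 differed by -0.32 ± 0.31, with 3 of 4 pairs higher in F3 and the 21% D90 pair at -1.65. Without F1 21% D90 it differed by +0.10 ± 0.09. Cyp7a1, the rate-limiting enzyme gene of bile acid synthesis, differed by +0.04 ± 0.27 by diet and -0.27 ± 0.27 by generation, with 10.67 in F3 21% D456 and 11.16 to 12.05 elsewhere. Cyp8b1, which sets the share of cholic acid, differed by -0.29 ± 0.12 and -0.21 ± 0.12. Hsd17b4, a peroxisomal enzyme of side-chain shortening, differed by +0.31 ± 0.12 by diet, and Scp2, which acts in the same chain, by +0.39 ± 0.19 by generation. Scp2 stood at 12.91 in F1 5% D90 and at 13.79 to 14.17 elsewhere, and without that array it differed by +0.15. Cyp7a1 differed without it by -0.18 by diet and -0.49 by generation, and Cyp8b1 by -0.14 by generation.

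The 10 regulators tested held 4 genes that were higher with 21% corn oil and 3 that were higher in F3 (medians -0.01 and -0.07). The probe of Nr0b2, which encodes SHP, a repressor induced by FXR, reached only 6.87 at its highest, under the filter bound of 6.95, so it was not tested. Nr1h4 differed by +0.09 ± 0.12 by diet and -0.04 ± 0.12 by generation. Nr5a2 differed by -0.17 ± 0.16 and -0.31 ± 0.16, and Hnf4a, a hepatocyte transcription factor gene, by -0.12 ± 0.16 and -0.18 ± 0.16. Nr1i3 (+0.17 ± 0.12 by diet) and Mafg (-0.18 ± 0.10 by generation) followed. The 7 arrays without F1 5% D90 gave -0.06 and -0.20 for Nr5a2, +0.04 and -0.02 for Hnf4a, and +0.20 and +0.08 for Nr1h4. In bile acid transport 3 of 11 genes were higher with 21% corn oil and 4 of 11 in F3 (medians -0.04 and -0.06). The uptake carriers Slco1b2 (+0.38 ± 0.29 by generation) and Slco1a4 (-0.24 ± 0.21 by diet, +0.23 ± 0.21 by generation) were both lowest in F1 5% D90, and without it they differed by -0.0040 and -0.03 by generation. By diet Slco1a4 then differed by -0.51 ± 0.10 (adjusted p = 0.194 by limma) and Slco1b2 by -0.43 ± 0.11 (adjusted p = 0.359), against -0.04 ± 0.29 for Slco1b2 on all 8 arrays. The exporter genes Abcc3 (+0.18 ± 0.14), Abcb4 (+0.17 ± 0.18, both by diet) and Abcg8 (-0.21 ± 0.11 by generation) were the other named genes, at +0.29, +0.37 and -0.11 without F1 5% D90.

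**Figure D4:**
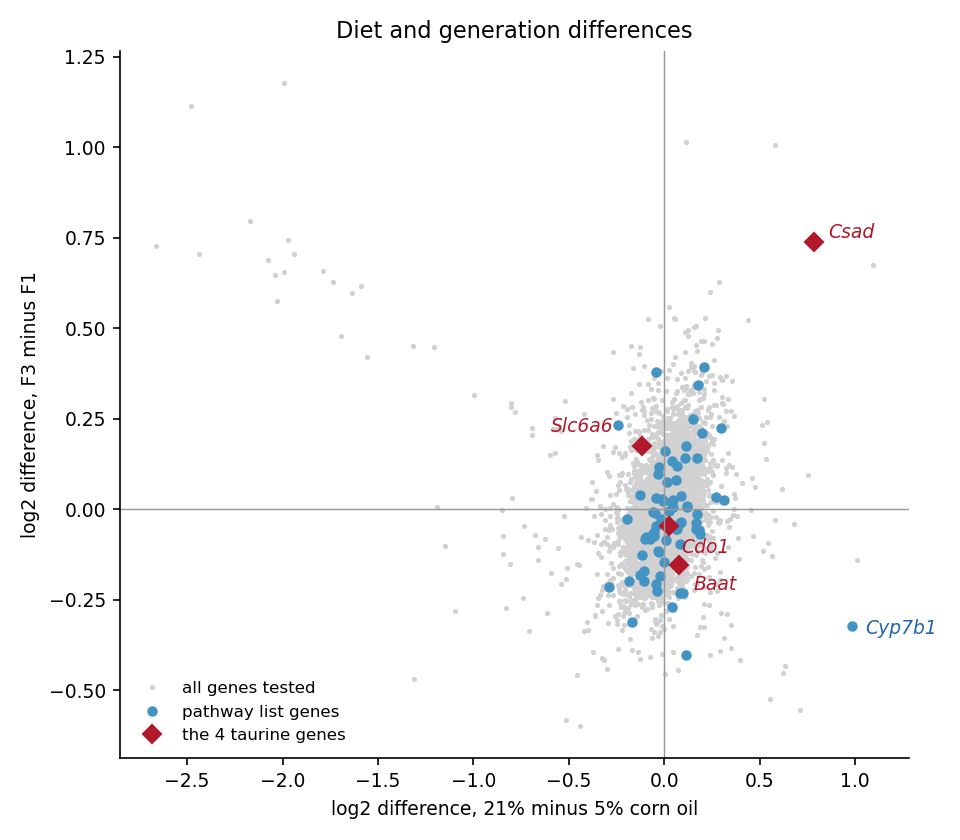
Log2 difference by diet (21% minus 5% corn oil) against log2 difference by generation (F3 minus F1) for all 8945 genes tested (grey), the 71 pathway genes (blue) and the 4 taurine genes (red). Csad, picked for its differences by diet and generation, lies at +0.79 and +0.74. Cyp7b1 lies at +0.98 and -0.32, and without F1 21% D90 these values were +0.56 and +0.10.

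The genes whose levels over the 8 arrays were most like those of Csad were Gak, a kinase gene of clathrin coat removal (Pearson r = 0.95), Atp5b, a subunit gene of ATP synthase (0.93), Laptm4a, a lysosomal membrane protein gene (0.93), Ugt3a2, a glycosyltransferase gene (0.92), Rap1gds1 (0.92) and Thumpd1 (0.91). Those most opposed were Uqcr11, a subunit gene of respiratory complex III (-0.96), the kinase gene Mknk2 (-0.95), Cgas, a sensor gene of cytosolic DNA (-0.93), Cyb5r3, an NADH-cytochrome b5 reductase gene (-0.93), Hps1 (-0.93) and Mrps28 (-0.93). These were the extremes among 8945 genes and were found by searching, so they are a description. Without F1 5% D90 the first 6 had r of 0.83 to 0.90. Csad spanned 1.76 log2 units over the arrays, while Gak spanned 0.51, Ugt3a2 0.53, Atp5b 0.21 and Cgas 0.08. Cyb5r3 had the widest span of these genes and ran from 11.83 to 12.89. The genes most like Cdo1 were Ro60 and Kctd21 (both 0.97) and Crat (0.97), those most like Slc6a6 were Cdyl (0.95), Ahsg and Slc39a14 (both 0.93), and those most like Baat were Arhgap29, Zfp236 and Mbtd1 (all 0.98).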

How the data were processed

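The deposited table gives 1 linear intensity per probe and array, from 101 to 30694. No source used here states how the authors normalized it. Array means were all 457 and medians 123.2 to 123.5, so the arrays had been normalized before deposition. Whether background was subtracted is not stated. The values have a floor near 101, so folds of dim genes may be understated. RNA was extracted with Trizol, per the labels' protocols. Values were used as log2. Of 25697 probes, 23978 carried 1 gene symbol, 0 several and 1719 none. Probes were kept where their mean log2 value exceeded 6.95, the middle of all such means, and each gene was represented by its brightest probe (8945 genes). The number of arrays limits the precision.

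Differences came from limma 3.58.1 in R 4.3.3, by an additive model of diet, age and generation over all genes (4 residual degrees of freedom, intensity trend, two-sided, Benjamini-Hochberg, threshold 0.05). Interactions were added 1 at a time. Leaving out each array for single list genes was chosen after seeing the data. With 1 array per combination, a real interaction adds to the error. The additive fit was tested on simulated data with independent errors. Those data held no interaction, no pancreas or muscle transcripts and no outlying array, so such effects were not covered. Genes most like a member were ranked by Pearson r over the 8 arrays. From each list the 3 genes with the largest diet and the 3 with the largest generation difference were named, with Cyp7a1, Cyp8b1, Nr0b2, Nr1h4, Cbs, Cth, Gclc and Slc27a5 in any case, and Slc6a13 and Slc1a4 after their values were seen. Members and lists were chosen with earlier results of these data known. Figures were drawn with matplotlib 3.10.9.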

Additional observations from a re-analysis of the deposited data

Results flagged for a closer look

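Cdo1 in F1 5% D90 (log2 14.06) and Baat in the same array (10.99) stood apart from the other 3 arrays of day 90, which lay at 13.67 to 13.73 and at 10.69 to 10.74. Of 24 overlapping groups of 4 arrays examined, 2 had such an array, and chance gives about 1 in 20. This array also had the lowest correlation with the others.

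The age difference of Slc6a6 had opposite signs with each diet, -0.42 in F3 and -0.15 in F1 with 21% corn oil, against +0.10 in F3 and +0.31 in F1 with 5%. The difference between the diets was -0.49 ± 0.26 and did not pass (adjusted p = 0.455 by limma). Without F1 5% D90 it was -0.25 and without F3 21% D456 -0.23.

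The diet difference of Baat was +0.12 in F3 and +0.53 in F1 at day 456, against -0.04 in F3 and -0.31 in F1 at day 90. The difference between the ages was +0.50 ± 0.21 and did not pass (adjusted p = 0.418 by limma). At an unadjusted p below 0.05, 11.8% of all genes had such an interaction of diet and age, and 0 passed.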

How the results depend on the processing

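The labels number no replicates, so pairs were arrays alike in the other factors. With each matched pair as a block, no tested member passed, and 0 genes were called by diet, 8 by age and 0 by generation. Other probes of Csad could not be tried, since each member has 1 probe. With the pancreas level as a covariate Csad differed by 1.07 by diet, and these signs turned, none past the threshold: by diet Cdo1 -0.33, Slc6a6 0.41 and Baat -0.25, by age Csad -0.0602 and Cdo1 0.17, by generation Cdo1 0.0723 and Slc6a6 -0.0026. The cause was not tested. Genes called by age, 9 in the report, were 15 with background subtracted, 25 with no filter, 2 with a stricter filter, 0 with no variance trend, 24 with robust variance, 24 with the factor alone and 35 with the pancreas covariate.

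Leaving out each array in turn gave, by diet, 0.67 to 0.89 for Csad, -0.055 to 0.15 for Cdo1, -0.27 to 0.0467 for Slc6a6 and -0.0442 to 0.18 for Baat, with 0 to 31 genes called (31 without F1 5% D90). By age it gave -0.0087 to 0.21 for Csad, -0.11 to 0.10 for Cdo1, -0.19 to 0.12 for Slc6a6 and -0.39 to -0.16 for Baat, with 0 to 23 genes called (23 without F1 5% D90). By generation it gave 0.62 to 0.84 for Csad, -0.12 to 0.0848 for Cdo1, 0.02 to 0.34 for Slc6a6 and -0.26 to -0.03 for Baat, with 0 genes called. Signal near the floor limits dim genes such as Nr0b2.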
